A study of Homo sapiens with 4 samples.

Results

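The ID genes encode inhibitors of DNA binding, and the HES and HEY genes encode related repressors. Members were taken by name: ID1, ID2, ID3, ID4, HES1, HES2, HES4, HES6, HEY1 and HEY2, which are 10 of the 61860 genes in the deposited count table. They were picked because ID2 had one of the largest rises in the comparison described here. Levels and fold changes of all 10 are therefore given as a description, without a test. RNA-seq counts came from HT1376, an established human bladder cancer line, with 2 samples per group and total RNA as input. The treated group received enfortumab vedotin (EV) at 1 nM for 48 h, and the control group received WFI for 48 h. EV is an antibody-drug conjugate that binds nectin-4 and carries monomethyl auristatin E, a microtubule poison. Both groups were grown in MEM with 10% fetal bovine serum, so serum was present in the controls as well. The labels state no genetic change in either group and do not say whether replicates were separate cultures.

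Basic helix-loop-helix (bHLH) transcription factors bind DNA as dimers, often of a tissue-specific factor with a widely made E protein. ID proteins hold the helix-loop-helix but lack the basic region, so they pair with E proteins and keep them off DNA. HES and HEY proteins do bind DNA, recruit Groucho (TLE) corepressors, and are the classic targets of Notch signalling, while ID1, ID2 and ID3 are classic targets of bone morphogenetic protein (BMP) signalling through SMAD factors. In epithelia both families are known for holding back differentiation.

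The sequence before the start site is shown for 4 members, to set the largest rise in each family (ID2 and HES1) beside a relative at a similar level in both groups (ID1 and HES4). Each line gives the 250 bases before the RefSeq start, 5′ to 3′ in the gene's direction, on GRCh38.p14. Capitals mark CCAAT, or its reverse complement ATTGG, and TGGGAA, the core bound by the Notch partner RBPJ.
ID2, chr2:8681806-8682055, plus strand: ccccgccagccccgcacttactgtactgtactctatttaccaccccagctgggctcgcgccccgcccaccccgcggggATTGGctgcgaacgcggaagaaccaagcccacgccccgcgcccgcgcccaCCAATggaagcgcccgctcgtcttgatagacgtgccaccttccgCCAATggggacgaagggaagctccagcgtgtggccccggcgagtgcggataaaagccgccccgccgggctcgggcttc
ID1, chr20:31605039-31605288, plus strand: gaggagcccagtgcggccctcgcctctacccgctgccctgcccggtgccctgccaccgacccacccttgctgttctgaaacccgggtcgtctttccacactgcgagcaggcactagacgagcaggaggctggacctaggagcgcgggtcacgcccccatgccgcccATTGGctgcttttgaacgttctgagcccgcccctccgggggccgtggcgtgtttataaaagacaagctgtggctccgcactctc
HES1, chr3:194135898-194136147, plus strand: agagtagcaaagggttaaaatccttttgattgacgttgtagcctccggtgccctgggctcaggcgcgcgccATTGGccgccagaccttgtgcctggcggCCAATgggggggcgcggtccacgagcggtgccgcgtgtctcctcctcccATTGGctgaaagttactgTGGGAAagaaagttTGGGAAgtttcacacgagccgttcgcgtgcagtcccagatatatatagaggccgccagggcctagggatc
HES4, chr1:1000098-1000347, minus strand: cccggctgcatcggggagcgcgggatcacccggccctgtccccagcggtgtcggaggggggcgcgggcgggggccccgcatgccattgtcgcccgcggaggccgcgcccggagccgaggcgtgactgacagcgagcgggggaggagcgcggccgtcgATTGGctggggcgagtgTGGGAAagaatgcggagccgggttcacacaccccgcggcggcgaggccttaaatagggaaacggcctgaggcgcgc

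Start sites were matched for 9 of the 10 members, all but HEY1. Motifs were read on both strands in the same 250 bases, and the share of all 27305 genes with a match is given beside each. CCAAT, the box bound by NF-Y, was found in 7 members and in 33.0% of genes. ID2 held 3 such boxes and HES1 also held 3, a number reached by 3.09% of genes, while ID1 and HES4 held 1 each. HES6 and HEY2 held 2 each, ID4 held 1, and ID3 and HES2 held 0. Whether the number of boxes bears on the fold changes was not tested. TGGGAA was found in 2 places in HES1, at 84 and 70 bases before the start, and 2.92% of genes held 2 or more. HES4 and HEY2 held 1 each, and 21.1% of genes held at least 1. HES1 also held 3 copies of the N box CACNAG and 2 of CACGCG, both known as sites of HES factors, against 0.912% and 1.63% of genes with that many. ID1 held 1 N box, and 32.0% of genes held at least 1. TGACG, part of the cAMP response element, was present in ID3 and HES1 (21.7% of genes). GGCGCC, a SMAD-bound GC element, was present in HES2 and HEY2 (16.1% of genes). TATAAA was present in ID1, ID4 and HES6 (11.1% of genes), and ID1 held an overlapping pair of matches. The E box CACGTG (6.49% of genes) and the AP-1 site TGANTCA (6.60%) were found in 0 of the 9 windows. No other matches overlapped each other. A match is a run of letters and was not shown to be bound in these cells.

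**Figure D1:**
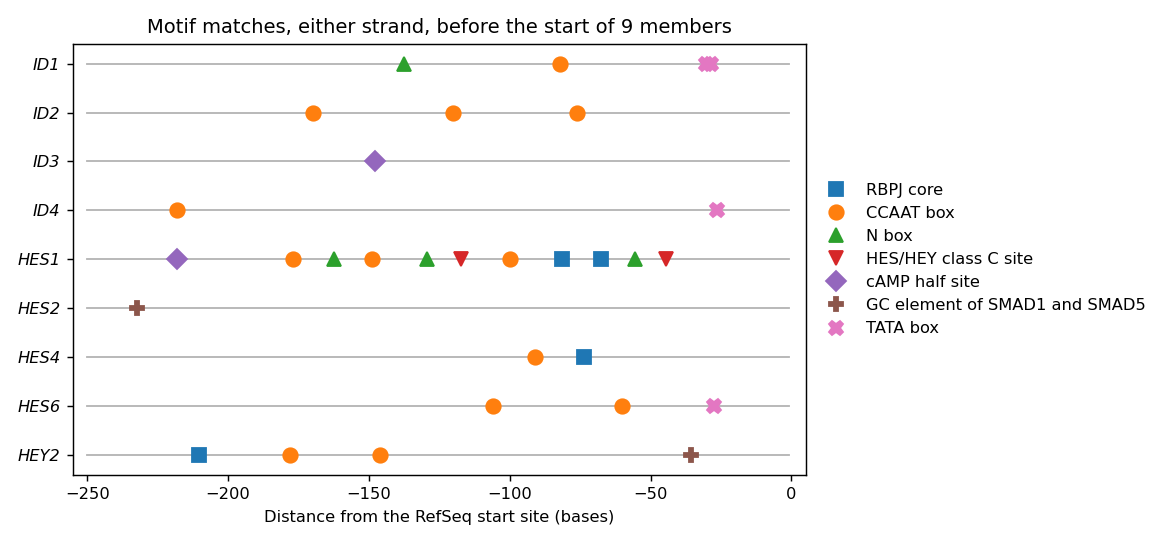
Motif matches on either strand in the 250 bases before the RefSeq start of 9 members. The horizontal axis is the distance from the start in bases, each row is a gene and each symbol a motif; HES1 carries 11 of the matches, and ID2 carries 3 CCAAT boxes alone.

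Total counts per library were 19368791 and 20727175 in EV and 19447577 and 19669037 in WFI, and 29456 and 28770 genes had a count in EV against 26258 and 26587 in WFI. The 37 mitochondrial genes were listed at 0 throughout. The line was checked against 14 epithelial and urothelial markers. KRT20 had 0 counts in any sample, and CDH1 had 9 and 7 counts in EV against 0 and 1 in WFI, whereas KRT8 stood at 1896 ± 10.5 CPM in EV and 733 ± 8.56 CPM in WFI (SD, n = 2 each). The summed level of these 14 genes was 2666 and 2701 CPM in EV, against 1160 and 1155 CPM in WFI. KRT8 and KRT18 (725 CPM in EV and 387 in WFI on average) made up most of that sum. KRT19, named after its values were seen, had 0 and 1 counts in EV against 1 and 6 in WFI. Of the 14, 5 were at 0 in both controls, and all 7 that could be tested were higher in EV, beside 34.5% of all genes tested. Log2 fold changes were 1.37 for KRT8, 0.91 for KRT18 and 3.57 for GATA3. EPCAM, KRT5 and UPK1A, named after their values were seen, passed the count filter only through EV. A fall could not have been seen in them, and nothing is read from the count. Summed leukocyte, neural and endothelial markers were also higher in EV, the neural sum mainly through TUBB3, while summed fibroblast markers overlapped between the groups. Leukocyte markers (6 genes) summed to 42.9 and 43.1 CPM in EV against 1.55 and 2.29 in WFI, led by ITGAM at 26.0 CPM in EV and 0.120 in WFI on average. CD14 averaged 7.29 CPM in EV and 1.63 in WFI, and CD79A had 182 and 155 counts in EV against 2 and 1 in WFI. PTPRC, which defines leukocytes, had 4 and 9 counts in EV and 1 and 3 in WFI. Neural markers (5 genes) summed to 77.5 and 88.9 CPM in EV against 6.58 and 7.17 in WFI, of which TUBB3 gave 78.2 CPM in EV and 2.38 in WFI on average. SOX2 had 0 and 3 counts in EV and 0 in both controls. Endothelial markers (6 genes) summed to 20.3 and 22.3 CPM in EV against 10.9 and 13.7 in WFI, and fibroblast markers (7 genes) to 14.7 and 11.7 CPM in EV against 13.2 and 13.7 in WFI. CDH1, KRT20, PTPRC and SOX2 were picked here as defining genes after their values were seen. The part of these genes in the ID, HES and HEY values was not tested. In a bulk sample, more cells that make a transcript and more transcript per cell cannot be told apart.

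ID2 carried the largest difference among the members. On hg38 it lies on chromosome 2, from 8678845 to 8684453 on the plus strand (GENCODE 29). It had 20178 and 21366 counts in the EV samples, against 17 and 13 counts in the WFI samples. Scaled for library size with TMM (CPM), these were 1109 and 1103 in EV and 0.823 and 0.621 in WFI. Both EV samples stood more than 1000 CPM above both controls, and the EV samples differed from each other by less than 1%. The mean was 1106 ± 4.01 CPM in EV and 0.722 ± 0.143 CPM in WFI, a log2 fold change of 10.57 (SE 0.07). Among the 16199 tested genes with 10 or more counts over both controls, ID2 had the largest fold, which is the value it was chosen for. By level it ranked 103rd and 102nd of 17465 tested genes in the EV samples, against 14330th and 14929th in WFI. It took 0.104% and 0.103% of all counts in the EV libraries.

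Reads of related loci were checked beside ID2. The antisense gene ID2-AS1, which overlaps ID2, had 26 and 20 counts in EV against 3 and 7 in WFI. That was 0.111 antisense counts per 100 ID2 counts in EV, and 33.3 per 100 in WFI, where both genes were near 0. The processed pseudogene ID2B had 0 counts in all 4 samples. Library preparation kept strand; which strand setting was used in counting is not stated in the labels.

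The other ID genes did not share the size of that rise. ID1, the relative most tied to BMP signalling (chromosome 20, 31605283 to 31606515, plus strand), had 1407 and 1317 counts in EV against 1513 and 1512 in WFI. Scaled, that was 77.3 and 68.0 CPM in EV and 73.3 and 72.3 CPM in WFI, so the EV samples lay on either side of the controls. The log2 fold change of ID1 was -0.00 with an SE of 0.07. ID3, which pairs with the same E proteins, lies on the minus strand of chromosome 1 (23557918 to 23559794) and had 601 and 623 counts in EV against 232 and 228 in WFI. It reached 33.0 and 32.2 CPM in EV, against 11.2 and 10.9 CPM in WFI, with a log2 fold change of 1.56 (SE 0.11). The ID3 groups did not overlap. ID4 (chromosome 6, 19837386 to 19840684, plus strand) had 2 and 0 counts in EV and 0 in both controls. It lay below the count filter and has no usable fold.

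HES1, the best known Notch target (chromosome 3, 194136145 to 194138732, plus strand), had 5351 and 6028 counts in EV against 494 and 505 in WFI. Its level was 294 and 311 CPM in EV, against 23.9 and 24.1 CPM in WFI. Every EV value was thus over 10 times each control, at a log2 fold change of 3.66 (SE 0.05). HES4, a close relative that mice lack, lies on the minus strand of chromosome 1 (998962 to 1000172) and had 452 and 430 counts in EV against 425 and 434 in WFI. HES4 stood at 24.8 and 22.2 CPM in EV and at 20.6 and 20.7 CPM in WFI. The groups did not overlap, yet the gap between the lower EV sample and the controls was smaller than the gap between the EV samples, and the log2 fold change was 0.19 (SE 0.11). HES2, on the minus strand of chromosome 1 (6412418 to 6424670), had 6 and 9 counts in EV and 6 and 2 in WFI, below the filter.

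HES6 differs from its relatives in that it can oppose HES1 rather than act as a Notch-induced repressor. It lies on the minus strand of chromosome 2 (238238267 to 238240662) and had 499 and 542 counts in EV against 150 and 120 in WFI. Its level was 27.4 and 28.0 CPM in EV against 7.26 and 5.74 CPM in WFI, a log2 fold change of 2.09 (SE 0.14). The gap between the groups was far wider than that between replicates.

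HEY1 and HEY2 are repressors known for their part in blood vessel and heart development downstream of Notch. HEY1, on the minus strand of chromosome 8 (79764010 to 79767863), had 618 and 749 counts in EV against 189 and 175 in WFI. That gave 34.0 and 38.7 CPM in EV and 9.15 and 8.37 CPM in WFI, with no overlap and a log2 fold change of 2.05 (SE 0.12). HEY2 (chromosome 6, 125747664 to 125761269, plus strand) had 47 and 53 counts in EV against 7 and 7 in WFI. At 2.58 and 2.74 CPM in EV, against 0.339 and 0.335 CPM in WFI, its log2 fold change was 2.96 (SE 0.46). HEY2 passed the count filter only through its EV counts, so a fold below 1 could not have been seen there. HEY2-AS1, which overlaps HEY2 on the other strand, had 3 and 0 counts in EV and 0 in both controls.

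**Figure D2:**
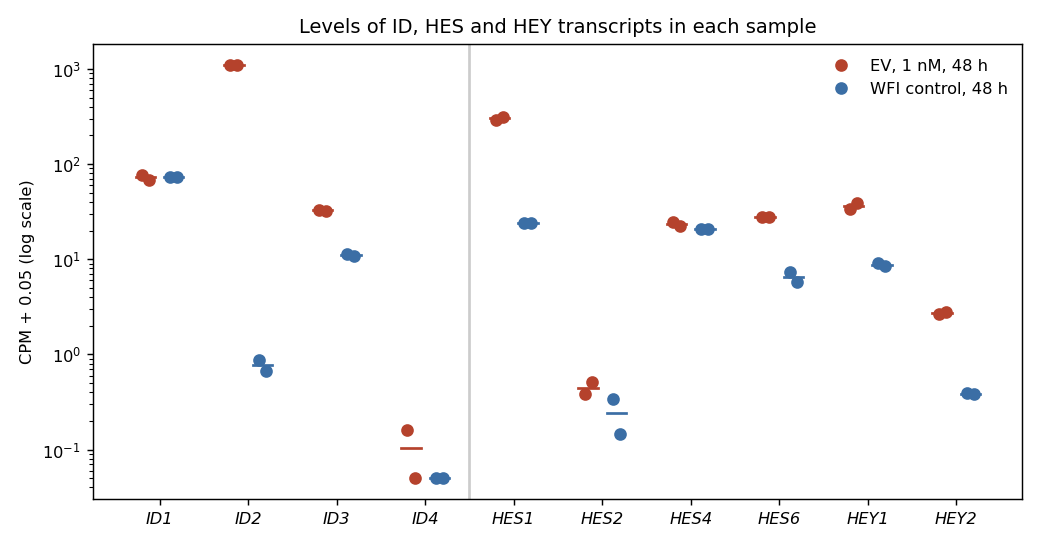
Levels of the 10 members in each sample, as CPM plus 0.05 on a log axis, with EV left of WFI. Each point is a sample and each bar the mean of 2; ID2 separates by about 3 powers of 10, HES1 by about 1, and ID1 and HES4 lie close together.

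Of the 10 members, 8 passed the count filter. In the edgeR quasi-likelihood fit over all genes, 6 of these 8 (ID2, ID3, HES1, HES6, HEY1 and HEY2) were higher in EV at an adjusted p below 0.05, beside 34.5% of all 17465 genes tested. None was lower in EV, with 0 of 8 also at an unadjusted p below 0.05 and with DESeq2, beside 31.5% of all genes. Since ID2 was chosen from this contrast, nothing is read from those counts. Both EV samples stood above both WFI samples for 8 of the 10 members, beside 42.1% of tested genes, and the groups overlapped for ID1 and ID4. Those 8 include HES2, which was not tested and had 6 and 9 counts in EV against 6 and 2 in WFI. Its separation rests on library scaling. HEY2, also among them, passed the filter only through EV. Both EV samples lay below both controls for 0 members, beside 40.7% of tested genes. The median log2 fold change was 2.07 for the 8 members and 0.02 for all genes tested.

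Division by the length of the APPRIS principal transcript made levels comparable between genes. In EV the order was ID2 at 542 ± 1.97 CPM per kb, HES1 at 192 ± 7.70, ID1 at 73.1 ± 6.63, HES4 at 26.2 ± 2.07 and ID3 at 26.1 ± 0.486 (SD, n = 2). HES6 at 19.1 ± 0.274, HEY1 at 15.8 ± 1.45 and HEY2 at 0.993 ± 0.0406 CPM per kb came next. The per-length levels of HES4 and ID3 overlapped in EV, and those of the other pairs of neighbours named did not. In WFI, ID1 came first at 73.2 ± 0.699 CPM per kb, ahead of HES4 at 23.0 ± 0.132, HES1 at 15.2 ± 0.0989 and ID3 at 8.85 ± 0.189. HES6 at 4.47 ± 0.742 and HEY1 at 3.82 ± 0.242 CPM per kb overlapped in WFI, and ID2 followed at 0.354 ± 0.0699. HES2 and ID4 stood below 0.11 CPM per kb in every sample.

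The makeup of both families thus differed between the groups. All ID transcripts summed to 648 and 635 CPM per kb in EV, against 83.1 and 81.7 in WFI. ID2 made up 84.5% of that sum in EV and 0.429% in WFI, and ID1 made up 11.4% in EV and 88.8% in WFI. The ID1 level itself was 73.1 CPM per kb in EV and 73.2 in WFI. All HES and HEY transcripts summed to 249 and 259 CPM per kb in EV, against 47.2 and 46.1 in WFI. HES1 supplied 75.5% in EV and 32.6% in WFI, and HES4 supplied 10.3% in EV and 49.3% in WFI.

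**Figure D3:**
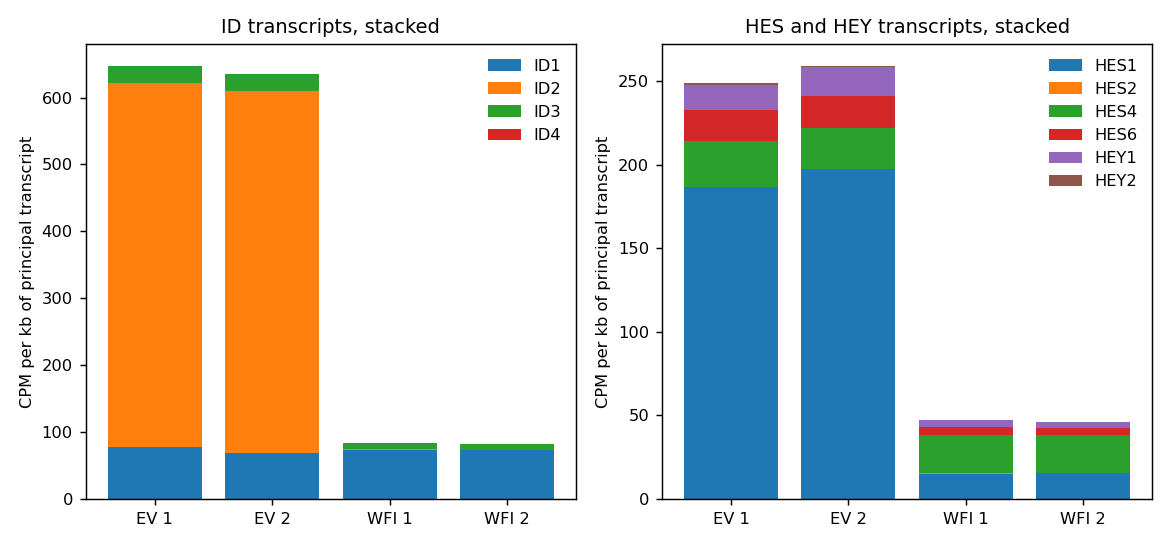
Stacked levels of ID transcripts (left) and HES and HEY transcripts (right) in each sample, in CPM per kb of principal transcript, with EV left of WFI. ID2 fills most of the EV columns in the left panel, where ID1 is alike in all 4 samples, and HES1 fills most of those in the right panel.

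Spliced length, here the merged exons of all transcripts of a gene, moved with the contrast. It can far exceed the principal transcript, as for TCF4 with 27828 against 8317 bases. Among tested protein coding genes, the median log2 fold change was 0.59 in the decile of shortest spliced length and -0.60 in the decile of longest. All 8 members tested lay in the shortest 3 deciles. ID1, ID3, HES1, HES4 and HES6 lay in the first, ID2 and HEY2 in the second (median 0.34) and HEY1 in the third (median 0.26). With the decile median taken off, the log2 fold change was 10.23 for ID2, 3.07 for HES1, 2.62 for HEY2, 1.79 for HEY1, 1.505 for HES6 and 0.97 for ID3. ID1 and HES4 went to -0.59 and -0.40 on that scale, below genes of their own length. Whether length itself sets these differences was not tested.

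**Figure D4:**
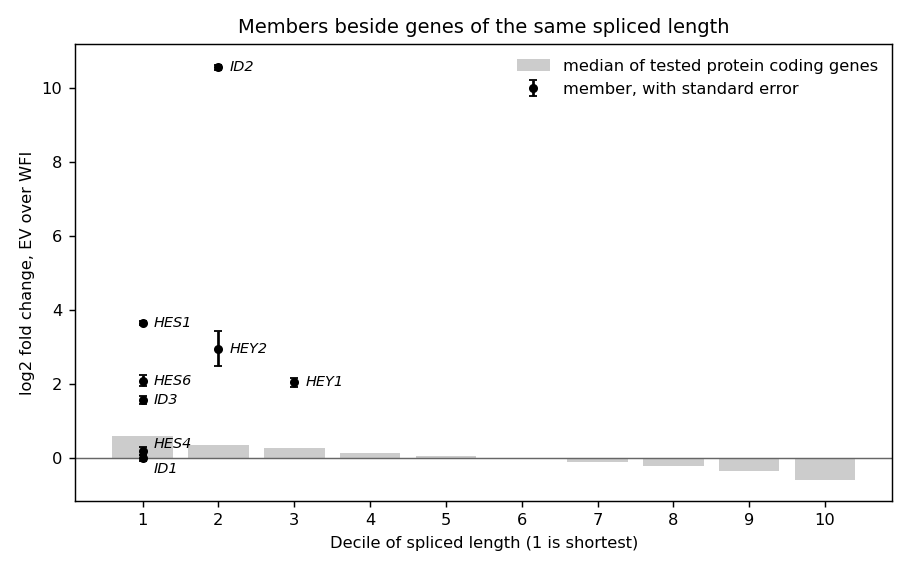
Log2 fold change, EV over WFI, of the 8 members tested (points, bars show the standard error) beside the median of tested protein coding genes in each decile of spliced length (grey). ID2 stands at 10.57 above a median of 0.34, while ID1 and HES4 lie below the 0.59 of their decile.

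The 5 genes whose profile lay nearest to ID2 were FRG2B, SNAI1, EFNA2, FRG2C and FRG2EP, by Euclidean distance of log2 CPM centred on the mean of the 4 samples. SNAI1, a repressor of epithelial genes, had 19741 and 22138 counts in EV against 19 and 27 in WFI, at a distance of 0.782. EFNA2, an ephrin ligand, had 1198 and 1274 counts in EV against 0 in both controls. The FRG2 copies are near-identical, so how reads were shared among them is uncertain. Over 4 samples in 2 groups such likeness amounts to a comparable rise in log2 CPM, which was computed with a prior count of 2. It does not give folds of equal size. FRG2B, EFNA2 and FRG2EP had 0 counts in both controls, so their folds are known only as at least 1000, 456 and 214. Distances ran from 0.263 for FRG2B to 2.17 for FRG2EP.

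Of other bHLH repressors of this kind, 3 of 7 could be tested, where 66.0% of all genes were called in either direction. BHLHE40, a stress and clock repressor, was higher at 313 ± 6.03 CPM in EV against 158 ± 3.02 in WFI (edgeR adjusted p = 2.76e-09), while its relative BHLHE41 was lower at 15.1 ± 0.137 CPM in EV against 44.8 ± 1.43 in WFI (edgeR adjusted p = 9.91e-08). HES7 rose by a log2 fold change of 1.09 (edgeR adjusted p = 0.00315), a call that ended with the length decile median taken off (0.50, edgeR adjusted p = 0.108). HES5, a Notch target of neural tissue named after its values were seen, had 0 counts in all samples.

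The E proteins that ID proteins bind differed little beside ID2. TCF3, which encodes E12 and E47, was higher by 0.35 on the log2 scale (SE 0.04, edgeR adjusted p = 3.24e-05). TCF12 was lower by a log2 fold change of -0.23 (SE 0.07, edgeR adjusted p = 0.0136), but the call was lost without WFI replicate 1 (edgeR adjusted p = 0.0992) and with DESeq2 (0.0649), and the sign turned to 0.13 with the length median taken off. TCF4 had a log2 fold change of -0.09 (edgeR adjusted p = 0.582), and 0.51 with the length median taken off (edgeR adjusted p = 0.00895). Summed over the 3 genes, E protein transcripts stood at 48.7 and 50.3 CPM per kb in EV and 44.0 and 43.3 in WFI. The ratio of summed ID to summed E protein transcripts was therefore 13.3 and 12.6 in EV, against 1.89 in both controls. That is a ratio of RNA levels, and no protein was measured.

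Genes of tissue-specific bHLH activators, the usual partners of E proteins, were mostly silent, with 19 of 26 below the filter. Of the 7 tested, 4 rose and 3 were not called, beside 34.5% higher among all genes tested. All 4 passed the count filter only through EV, so that a fall could not have been seen and nothing is read from their count. With a filter of 50 counts, 1 gene of the list was called higher, but none of these 4 reached that filter. NEUROG2, a neural factor, stood at 2.21 ± 0.135 CPM in EV against 0.217 ± 0.0360 in WFI (edgeR adjusted p = 0.000259), and NEUROD2, with 31 and 20 counts in EV and 0 in both controls, was at least 9.48-fold higher. ATOH8 rose by a log2 fold change of 2.50 (edgeR adjusted p = 0.00365), a call lost without WFI replicate 1 (0.0679). MYOG, named after its values were seen, had 10 and 11 counts in EV against 1 and 0 in WFI.

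Of 36 tested genes of the Notch pathway that acts on HES and HEY genes, 8 rose and 21 fell, beside 34.5% higher and 31.5% lower among all genes tested. Their median log2 fold change was -0.26, against 0.02 for all genes. Among the ligands, JAG1 rose to 325 ± 2.59 CPM in EV, against 57.5 ± 2.90 in WFI (edgeR adjusted p = 6.67e-12), and DLL4 to 8.02 ± 2.42 CPM in EV, against 0.553 ± 0.0970 in WFI (edgeR adjusted p = 3.21e-06). DLL3, which passed the filter only through EV, had 20 and 30 counts in EV against 0 and 1 in WFI, a ratio of 55.3 with a 95% counting interval of 9.49 to 2229, and DLL1 had 0 counts throughout. JAG2 had a log2 fold change of -0.68 (edgeR adjusted p = 0.0621) that passed without EV replicate 2 (-0.99, edgeR adjusted p = 0.0210) and without WFI replicate 1 (-0.91, edgeR adjusted p = 0.0377). The receptors NOTCH1 (log2 fold change -0.84) and NOTCH2 (-1.29) fell, and NOTCH2 stood at 270 ± 10.6 CPM in EV against 658 ± 26.4 in WFI. NOTCH3 was low, with a log2 fold change of 1.01 (edgeR adjusted p = 0.153), and NOTCH4 had 0 counts in EV against 0 and 2 in WFI. The proteases ADAM10 and ADAM17, which cut Notch, fell by 0.88 and by 1.05 on the log2 scale, while RFNG, a sugar transferase that tunes ligand choice, rose by 0.52. With the length median taken off, the log2 fold change was -0.69 for NOTCH2 and -0.28 for ADAM10. Over all 14 processing and glycosylation genes, 4 rose and 7 fell. RBPJ, the DNA-binding partner of cleaved Notch, fell to 83.1 ± 5.81 CPM in EV, against 241 ± 2.30 in WFI (edgeR adjusted p = 7.28e-10), and its coactivator MAML2 fell by 3.02 on the log2 scale. EP300, another coactivator, fell by 0.75, or by 0.15 with the length median taken off. Of the inhibitors, ITCH, DTX4 and NUMB had log2 fold changes of -1.60, -1.45 and -0.68. The negative regulator NRARP, itself a Notch target, was the 1 gene of that list to rise and was named after its value was seen, with a log2 fold change of 2.25 (edgeR adjusted p = 4.09e-05), or 1.66 with the length median taken off.

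Of 27 tested genes of the BMP pathway that acts on ID genes, 13 were higher and 10 lower, beside 34.5% higher and 31.5% lower among all genes tested. The receptors BMPR2 and BMPR1A fell by 1.30 and by 1.14 on the log2 scale, and by 0.70 and 0.54 with the length median taken off. ACVR2B fell by 1.77, or by 1.17 with the length median taken off. Of the 6 receptor genes tested, 4 fell, 1 rose and 1 was not called. The receptor gene that rose was ACVR2A, with a log2 fold change of 0.68, named after its value was seen. SMAD1 and SMAD9, which carry the signal, rose by log2 fold changes of 0.62 and 1.44, while SMAD5 fell by 0.81 and SMAD4, their shared partner, fell by 0.38. The SMAD4 value turned to 0.22 with the length median taken off. SMAD7, an inhibitory SMAD, rose to 121 ± 4.30 CPM in EV, against 15.3 ± 0.820 in WFI (edgeR adjusted p = 5.92e-11). FSTL3 and NBL1, secreted inhibitors, rose by 0.72 and 0.76. BAMBI, a decoy receptor, and SMAD6 rose by 3.12 and 1.99, and both were named after their values were seen. Of the 11 inhibitor genes tested, 6 rose and 4 fell. Those that fell, also named after their values were seen, were SMURF1 (log2 fold change -0.90), SMURF2 (-0.53), NOG (-0.30) and FST (-0.22). Of the ligands, BMP8A had 155 and 126 counts in EV against 6 and 10 in WFI, a log2 fold change of 4.26, and BMP8B rose by 1.52. BMP7 had 29 and 21 counts in EV and 0 in both controls, and was at least 9.28-fold higher. BMP8A, BMP7 and the inhibitor CHRD, named after its values were seen, passed the filter only through EV. A fall could not have been seen in these genes, which are part of the 13 higher.

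Of the 5 TLE genes on the corepressor list, 4 rose, a subset named after the values were seen. TLE4 rose by 1.54, TLE1 by 0.98, TLE5 by 0.74 and TLE3 by 0.59 in log2 fold change, and TLE2 had 0.01 (edgeR adjusted p = 0.972). With the length median taken off, TLE3 had 1.18. Of the other 7 corepressors on the list, 5 fell, among them SPEN, a partner of RBPJ, with a log2 fold change of -2.04 and NCOR1 with -1.16, or -1.44 and -0.56 with the length median taken off. SIRT1 and HDAC2, deacetylases named after their values were seen, rose by 0.76 and 0.13 (edgeR adjusted p = 0.0388 for HDAC2). Over all 12 corepressor genes, 6 rose and 5 fell, beside 34.5% higher and 31.5% lower among all genes tested. The number higher was 5 with DESeq2, with the replicate block and without a count filter. It was 7 with the length median taken off. EGR1 and SRF, early-response factors tied to ID gene induction, rose by 1.64 and 0.79, while ELK1, ELK3 and ELK4 had log2 fold changes of -0.27, -0.74 and -1.48 (ELK4 had -0.88 with the length median taken off). Among CDK inhibitor genes that E proteins, ID proteins or HES1 act on, 4 of 5 rose and 1 fell, beside 34.5% higher and 31.5% lower among all genes tested. CDKN1A, which encodes p21, stood at 698 ± 12.6 CPM in EV against 132 ± 2.32 in WFI (edgeR adjusted p = 1.08e-12). CDKN1C, CDKN2B and CDKN2A rose by log2 fold changes of 2.61, 1.29 and 0.55, and CDKN1B fell by 0.40.

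**Figure D5:**
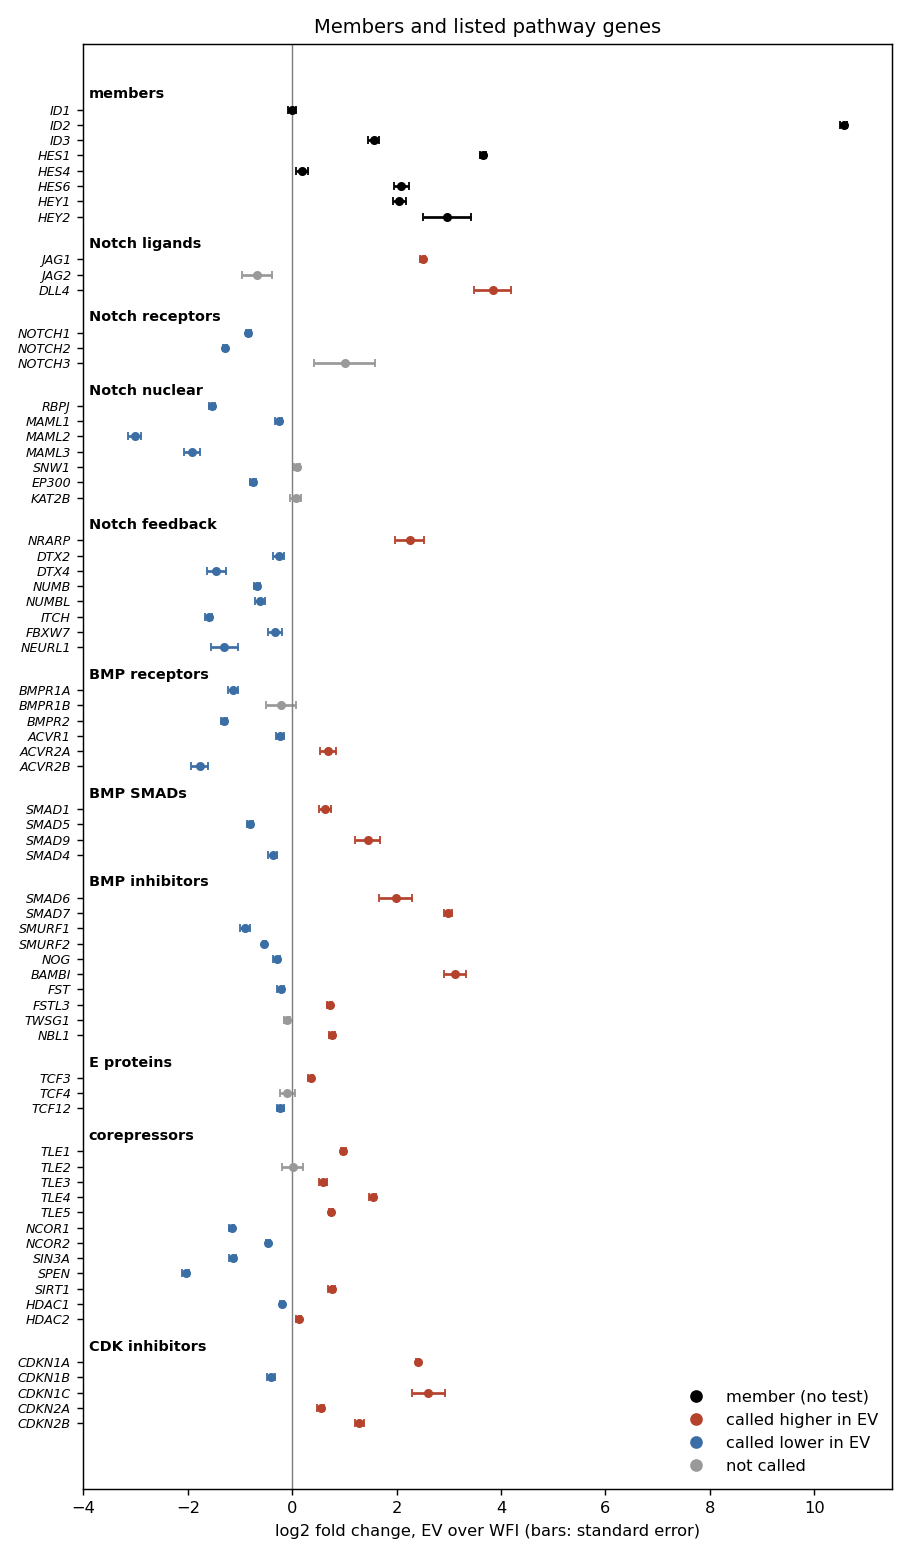
Log2 fold change, EV over WFI, with its standard error, of the 8 members tested (black) and of listed pathway genes with more than 3 counts over both controls, coloured by call. ID2 and HES1 stand at 10.57 and 3.66, JAG1 and SMAD7 lie at 2.50 and 2.98, and RBPJ, MAML2 and SPEN lie below -1.5.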

How the data were processed

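RNA-seq of 4 HT1376 samples was read from 1 table. The deposited values are whole-number counts per gene, not normalized by the authors as far as the values show. Per the labels' protocols the library kit was directional, and per the submitters' processing notes the build was hg38. For the aligner, the counting program, its strand option and its annotation the entry is: not given in the sources used here. Totals of 19368791 to 20727175 counts per sample limit the precision of members with few counts. Of 61860 IDs, 61757 matched a symbol. Positions and lengths came from GENCODE 29 and start sites from RefSeq (GRCh38.p14).

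The counts were fitted with edgeR 4.0.16 in R 4.3.3, with TMM scaling, filterByExpr, the quasi-likelihood test, group as the term and all 4 samples. Adjusted p-values are Benjamini-Hochberg over 17465 genes, with a threshold of 0.05. Pathway genes were called at that threshold. The SE is the size of the log2 fold change divided by the square root of F. CPM values are mean ± SD of 2 samples. For genes at 0 in both controls, at-least folds were computed against 3 counts in each control library (0.144 CPM); such bounds cover counting error only. Because separate cultures are not stated, p-values reflect sample-to-sample spread that may be technical. Within each group the 2 samples were distinct libraries, with a chi-square of 4.58 per degree of freedom in EV and 2.20 in WFI. On simulated counts over 16095 genes the fit recovered 36% of changes of 0.5, 94% of changes of 1 and 98% of changes of 2 on the log2 scale. The genes changed there had more control counts than ID2 or HEY2, and all genes had the same dispersion. The rates therefore do not cover genes with few control counts.

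Members, lists and tests were chosen with earlier results of these data known. The rule for names took all members, the 3 tested genes with the smallest adjusted p of each list, every gene of a list of 5 or fewer, and the 5 genes nearest to ID2. Fibroblast, endothelial and most neural markers are given as sums. Genes outside the rule are said to be so where they appear. The fit was repeated with other scalings (RLE, upper quartile), with DESeq2 1.42.0, with 2 other count filters, with a replicate block, without each sample, and with the median of the spliced length decile taken off. The last was planned for the members and added for the other genes after seeing the data.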

Additional observations from a re-analysis of the deposited data

How the results depend on the processing

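The 8 members tested were refitted under 11 alternatives. ID2 ranged from 10.23 to 10.75 in log2 fold change, HES1 from 3.07 to 3.71, HEY2 from 2.62 to 3.01, HES6 from 1.505 to 2.24, HEY1 from 1.79 to 2.13 and ID3 from 0.97 to 1.61. ID1 ranged from -0.59 to 0.07 and HES4 from -0.40 to 0.25, so their sign differed between alternatives. The number of members called higher in EV was 6 under each alternative except the filter of 50 counts (5), where HEY2 gave no value. The number called lower was 0 as reported and 2 (ID1 and HES4) with the length decile median taken off. With the filter of 50 counts, which tests fewer genes, 4 bHLH relatives and partners were called higher. Of these, 1 was not among the 7 called higher in the main fit. There, 2 were called lower, 1 with DESeq2, and from 1 to 2 when a sample was left out (1 without WFI replicate 1). With the length decile median taken off, a choice made for these genes after seeing the data, TCF12 went to 0.13, TCF4 to 0.51 and SMAD4 to 0.22 in log2 fold change. The cause was not tested beyond that construction. MAML1, a gene of the Notch list named after its values were seen, had a log2 fold change of -0.263 in the main fit. It lost its call without WFI replicate 1, at -0.257. The counts of called genes over the whole BMP, Notch, corepressor, early-response and CDK inhibitor lists stayed within 1.5 times under all 11 alternatives. Over all tested genes, the deviations of same-numbered samples had a correlation of 0.0159. With 2 samples per group, that cannot decide whether they shared a culture or batch. The labels do not say what the number marks. Under the replicate block the JAG2 log2 fold change was -0.69 (edgeR adjusted p = 0.0363), and ID2 stayed at 10.57. Few counts limit HES2, ID4, HEY2 and the control level of ID2, and 2 samples per group limit every value.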
